A study of Mus musculus with 12 samples.

Results

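The annexin family was examined in ribosome pull-downs and input RNA of cultured dorsal root ganglion (DRG) neurons from mice. Its members were taken by gene symbol and are Anxa1, Anxa2, Anxa3, Anxa4, Anxa5, Anxa6, Anxa7 and Anxa11. All 8 genes are listed in the count table of the libraries labelled Cre-, which holds 14177 genes. The table of the libraries labelled Cre+ holds 9112 genes and lists 6 of the 8. Anxa3 and Anxa11 were therefore not analysed in the libraries labelled Cre+. The family was chosen by gene symbol after pull-down and input values of these libraries, among them those of Anxa5, had been seen, so every comparison of pull-down with input is given here as a description and not as a test.

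Annexins are cytosolic proteins that bind acidic phospholipids, above all phosphatidylserine, when calcium rises. A conserved core of repeats carries the calcium sites, and a variable N-terminal tail binds partners such as the small S100 proteins. They are known for membrane repair, for vesicle and ion channel traffic, for linking membranes to actin and, in the case of Anxa1, for dampening inflammation. In sensory neurons the complex of Anxa2 with S100a10 is known for carrying ion channels to the cell surface.

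The series holds 12 samples of cultured neurons in 4 groups of 3. All mice were adult males with a hemagglutinin tag (HA) on both alleles of the ribosomal protein gene Rpl22 (Rpl22HA/HA, the RiboTag allele), which is expressed only after Cre recombination. The Cre+ groups also carry Runx3-Cre, whose driver Runx3 is a transcription factor of proprioceptive sensory neurons, and the Cre- groups are littermates without Cre. Recombination is permanent, so the tag marks any cell that has used the driver. Each group was sampled as an HA pull-down of ribosomes and as input, which is 10% of the lysate before pull-down. One sample pooled the neurons of 5 mice that had been purified on 20% Percoll and cultured for 24 h in medium with 10% serum. The labels give an age of 3 to 6 months, while the methods give a younger one. The labels describe the Cre- pull-downs as a background control, yet these libraries hold more counts than any other. Nothing ties the samples of a group to separate experiments beyond their own mice, so the errors measure the spread between these samples.

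Library totals, summed over the genes of each table, lay between 8886308 and 18633365 counts. Levels are given as CPM, which are counts scaled to a common library total after TMM normalization. Runx3, the gene of the Cre driver, reached its highest values in pull-downs labelled Cre-. It had 4.27, 2.39 and 5.55 in the Cre+ inputs and 22.7, 2.07 and 11.1 in the Cre+ pull-downs. In the Cre- inputs it had 4.68, 1.89 and 2.87 and in the Cre- pull-downs 20.7, 35.9 and 51.2. Of 8 proprioceptor markers, 7 were called higher in the Cre- pull-downs than in the Cre- inputs (6.01% of all genes were called higher there), with a median log2 fold change of 2.68. In Cre+, 6 of 7 also had positive values, with a median of 1.30, and 1 of them, Ntrk3, was called higher (4.72% of all genes). Without Cre+ pull-down 1, Heg1 and Ntrk3 were called higher (8.98% of all genes) and the median was 0.73. Groups are therefore named throughout by their labels, as libraries labelled Cre+ or Cre-. Whether these labels were exchanged in the samples was not tested. If they were, each direction between Cre+ and Cre- given here would turn. The Cre+ pull-downs also agreed least among themselves, with correlations of log2 values of 0.700 to 0.838 across genes, against 0.919 or more between libraries of each other group. Cre+ pull-down 1 stood apart. Its 8 listed endothelial and mural markers summed to 654 CPM, against 170 and 242 in the other Cre+ pull-downs and 113 to 170 in the Cre+ inputs. Such an excess was also seen in Cre- pull-down 1, with 207 CPM over 10 listed genes. The other Cre- pull-downs had 40.5 and 48.8 and the Cre- inputs 144.5 to 183.3. All 16 pan-neuronal markers were listed in both tables. They summed to 23730 to 30620 CPM in Cre+ inputs, 23860 to 26720 in Cre+ pull-downs, 26950 to 31550 in Cre- inputs and 51050 to 58860 in Cre- pull-downs. These sums were carried mostly by Nefl, Nefm, Nefh and Snap25, which had 13680, 14680, 3069 and 15450 CPM in Cre- pull-down 1. Over the 16 genes the median log2 fold change in Cre- was 0.17, with 4 called higher and 1 lower (6.01% and 5.83% of all genes). In Cre+ the median was 0.06, with 0 called higher and 3 lower (Stmn2, Uchl1 and Tubb3), against 4.72% and 2.19% of all genes. Without Cre+ pull-down 1, Elavl3 was called higher and Uchl1 and Tubb3 lower in Cre+, against 8.98% and 6.04% of all genes. Glial markers were present too, with 7 of 14 listed in Cre+ (2423 to 3716 CPM in inputs, 1660 to 2271 in pull-downs) and 12 of 14 in Cre- (2786 to 4297 and 1270 to 1688). These sums were carried mostly by Pmp22, which had 3140, 2121 and 2106 CPM in the Cre+ inputs. The part of glial cells in the annexin values was not tested. The annexin calls, the gene lists, the family shares and the likeness were also computed without Cre+ pull-down 1.

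The 8 genes lie apart in the genome and were counted apart. On GRCm38 (RefSeq), Anxa1 lies at chr19:20373434-20390671, Anxa2 at chr9:69453683-69491792, Anxa3 at chr5:96793385-96845968 and Anxa4 at chr6:86736840-86793634. Anxa5 lies at chr3:36448923-36475887 and Anxa6 at chr11:54978953-55033471. Anxa7 at chr14:20455261-20480133 and Anxa11 at chr14:25842127-25886804 share a chromosome but do not touch. No run of 50 bases in a member's transcript occurred in another member. For Anxa11, 28.9% of such runs also occurred in other genes (Gm2260, Gm2274 and the antisense gene Anxa11os), so its unique counts are uncertain. For Anxa4 the share was 1.48% (Gm44036), and for the other 6 it was 0. Exons overlapped another gene over 3.07% of their bases in Anxa3 (Gm42603), 2.73% in Anxa11 (Anxa11os), 2.63% in Anxa2 (Gm16144) and 1.61% in Anxa4 (Gm44036), and whether strand was used in counting is not given in the sources used here.

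The coding sequences show how the members differ around their calcium sites. The open reading frame of Anxa5 codes for 319 residues and that of Anxa6, whose core is duplicated, for 673. Anxa7 (463) and Anxa11 (503) have long tails. The codon series for glycine, any residue, glycine, threonine and then an acidic residue, which is the core of the annexin calcium site, was found 1 time in Anxa1 and in Anxa2, 2 times in Anxa7 and in Anxa11, 3 times in Anxa3, Anxa4 and Anxa5, and 4 times in Anxa6. The stretches around its most N-terminal copy are given here for the 5 members that the results turn on, 5′ to 3′ on the coding strand (GENCODE M21, GRCm38). Capitals mark the 15 bases that code for the site.

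Anxa1: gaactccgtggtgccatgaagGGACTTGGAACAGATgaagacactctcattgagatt
Anxa2: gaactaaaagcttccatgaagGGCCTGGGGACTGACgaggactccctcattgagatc
Anxa5: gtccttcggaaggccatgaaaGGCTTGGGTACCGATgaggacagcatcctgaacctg
Anxa6: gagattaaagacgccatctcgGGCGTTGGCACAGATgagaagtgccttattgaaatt
Anxa7: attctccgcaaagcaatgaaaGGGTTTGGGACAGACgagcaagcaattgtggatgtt

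Over all 8 members, 9 of the 15 capital bases and 18 of all 57 bases were the same in every gene. The search for these codons fixed most of the 9 beforehand, so they are no separate finding. Pairs shared between 28 and 42 of the 57 bases. Anxa1 and Anxa2 were the most alike (42 bases), and Anxa6 and Anxa7 the least (28 bases).

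In input RNA the members spanned a wide range of levels. Per kilobase of transcript, on the scale of each table, Anxa5 had the highest mean, with 449 ± 42.3 CPM (SD, n = 3) in Cre+ inputs and 413 ± 41.5 in Cre- inputs. It was followed by Anxa2 (273 ± 25.6 and 249 ± 35.2), Anxa6 (105 ± 13.6 and 98.1 ± 8.81) and Anxa7 (39.3 ± 2.73 and 43.5 ± 1.88). The libraries of these 4 neighbours in the order did not overlap. Anxa1 (10.1 ± 3.49 and 7.0 ± 3.27) and Anxa4 (7.1 ± 2.18 and 6.98 ± 1.33) did not differ beyond their spread. Anxa3, measured in Cre- inputs, had 3.43 ± 2.23, and its highest library reached the range of Anxa1 and Anxa4. Anxa11 was lowest with 1.08 ± 0.323, below every value of Anxa3. Anxa5, known as a phosphatidylserine probe for dying cells, and Anxa2 thus made up most annexin RNA of these cultures. The plot of input levels shows the order.

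**Figure D1:**
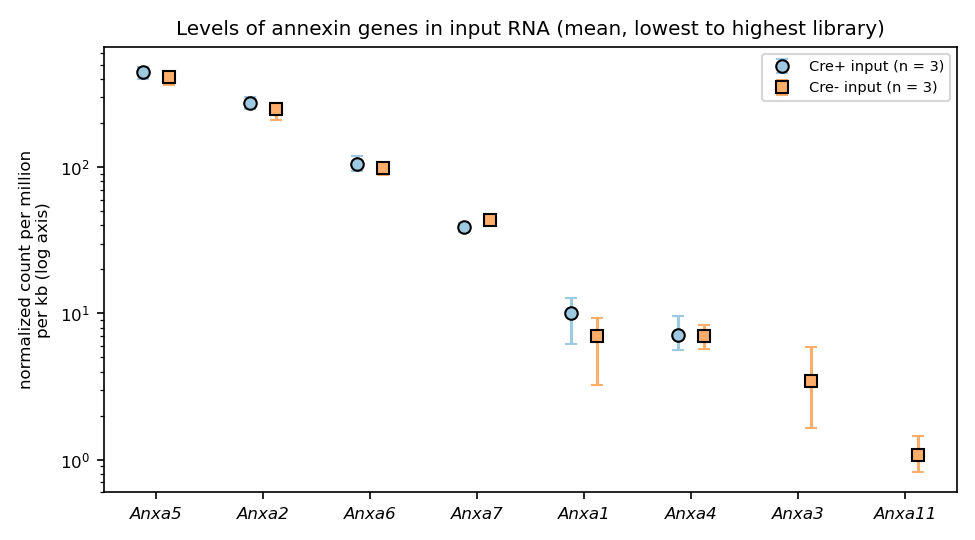
Levels of the 8 annexin genes in input RNA, as CPM per kilobase of transcript on a log axis. Markers give the mean of 3 libraries and bars run from the lowest to the highest library. Anxa5 and Anxa2 lie above 200 and Anxa1, Anxa4, Anxa3 and Anxa11 at about 10 or below, with Anxa3 and Anxa11 shown for Cre- only.

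In the libraries labelled Cre+, Anxa2, Anxa5 and Anxa7 were lower in pull-downs than in inputs. Anxa2 had 434, 360 and 392 CPM in the inputs and 71.9, 130 and 132 in the pull-downs. Every pull-down lay below every input, and the log2 fold change was -1.83 ± 0.31 (SE), or 3.55-fold lower. Anxa5 had 836, 695 and 799 in the inputs and 261, 297 and 260 in the pull-downs, again with no overlap and with a tight spread. Its log2 fold change was -1.51 ± 0.23, or 2.85-fold lower. Anxa7, known as synexin for its role in the fusion of secretory granules, had 115, 118 and 103 in the inputs and 45.8, 51.9 and 47.9 in the pull-downs. These groups did not overlap either, and the log2 fold change was -1.21 ± 0.34. Anxa6 had 233, 249 and 298 in the inputs and 213, 122 and 99.5 in the pull-downs. Cre+ pull-down 1 came close to the inputs and the other pull-downs were well below them, for a log2 fold change of -0.84 ± 0.34. Anxa6 was not called by the rule given below.

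The scarce members did not separate in Cre+. Anxa1 had 10.3, 21.3 and 19.2 CPM in the inputs and 24.3, 17.5 and 2.42 in the pull-downs, the last from 21 counts. Its log2 fold change was -0.20 ± 0.82. Anxa4 had 12.1, 19.2 and 11.3 in the inputs and 44.3, 2.07 and 11.5 in the pull-downs, from 399, 17 and 100 counts. Its pull-downs spanned both sides of the inputs, and the log2 fold change was 0.44 ± 0.94. Cre+ pull-down 1 was the highest Cre+ pull-down for Anxa1, Anxa4 and Anxa6. For Anxa2 and Anxa7 it was the lowest, and for Anxa5 it lay between the others. It also held the highest macrophage marker sum of the Cre+ pull-downs (112 CPM over 2 listed genes, against 16.8 and 4.85) beside the endothelial sum given above, and the part of these cells in the annexin values was not tested.

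A call required a false discovery rate (FDR) below 0.1 together with a change of at least 2-fold. By that rule Anxa2, Anxa5 and Anxa7 were called lower in Cre+, which is 3 of 6 members, where 2.19% of all 8947 genes tested were called lower and 6.91% in either direction. The pull-downs lay below all inputs for 4 of 6 members, as for 17.9% of all genes. Since the family was chosen with this contrast known, nothing is read from these counts. The median log2 fold change of the members was -1.03 and that of all genes was 0.08. Without Cre+ pull-down 1 the values were -1.55 ± 0.24 for Anxa2, -1.44 ± 0.23 for Anxa5, -1.19 ± 0.26 for Anxa6 and -1.13 ± 0.30 for Anxa7, and all 4 were called, where 6.04% of all genes were called lower in that fit. Anxa4 then turned to -1.03 ± 0.78 and Anxa1 had -0.72 ± 0.80. Without Cre+ input 1 or without Cre+ input 3, 0 members were called, and in all only 7 and 4 genes were called higher and 0 lower.

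In the libraries labelled Cre-, the members moved in different directions. Anxa5 had 633, 749 and 763 CPM in the inputs and 492, 313 and 323 in the pull-downs. All pull-downs were below all inputs, with Cre- pull-down 1 the highest of the pull-downs, and the log2 fold change was -0.93 ± 0.19. Anxa6, an annexin of endosomes and of membrane repair, had 220, 262 and 251 in the inputs and 426, 388 and 380 in the pull-downs. Here every pull-down lay above every input, and the log2 fold change was 0.70 ± 0.15, or 1.63-fold higher. Anxa1, known for ending inflammation through formyl peptide receptors, had 5.46, 14.1 and 15.6 in the inputs and 4.67, 4.32 and 4.89 in the pull-downs. The pull-downs were below all inputs, but Cre- input 1 lay close to them, and the log2 fold change was -1.34 ± 0.43.

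The other members overlapped between Cre- pull-downs and inputs. Anxa2 had 303, 384 and 397 in the inputs and 304, 263 and 334 in the pull-downs, for a log2 fold change of -0.27 ± 0.16. Anxa7 had 130, 122 and 120 in the inputs and 147, 117 and 98.9 in the pull-downs, for a log2 fold change of -0.03 ± 0.18. Anxa2 and Anxa7 were thus close to even in Cre-. Anxa4 had 16.7, 11.3 and 13.9 in the inputs and 25.0, 19.9 and 12.5 in the pull-downs, with a log2 fold change of 0.45 ± 0.32. Anxa3 had 9.46, 2.63 and 4.30 in the inputs and 7.67, 2.63 and 5.56 in the pull-downs, with a log2 fold change of -0.04 ± 0.57. The numbers 1, 2 and 3 of Anxa3 ran alike in inputs and pull-downs, with library 1 highest in both. Anxa11, known for tethering RNA granules to lysosomes in axons, had 2.34, 3.45 and 1.96 in the inputs and 3.67, 2.56 and 2.0 in the pull-downs. These rest on 24 to 66 counts a library, and the log2 fold change was 0.09 ± 0.58.

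Of the 8 members 1, Anxa1, was called lower in Cre-, where 5.83% of all 11526 genes tested were called lower, 6.01% higher and 11.8% in either direction. No member was called higher, since Anxa6 stayed under the 2-fold limit. Pull-downs lay below all inputs for 2 members (18.6% of all genes) and above them for 1 (18.2%). Nothing is read from these counts, as in Cre+. The median log2 fold change of the members was -0.04, equal to that of all genes at 2 decimals. The call of Anxa1 was absent without any of Cre- input 2, Cre- input 3, Cre- pull-down 2 and Cre- pull-down 3. Anxa5, just under the 2-fold limit, was called without Cre- input 1 and without Cre- pull-down 1. Anxa9, an annexin with altered calcium sites, was listed in the Cre- table below the limit of 1 FPKM and not tested. It had 1.66, 1.73 and 1.28 CPM in the inputs and 1.78, 2.70 and 1.56 in the pull-downs. The other annexin genes Anxa8, Anxa10 and Anxa13 were not analysed here.

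**Figure D2:**
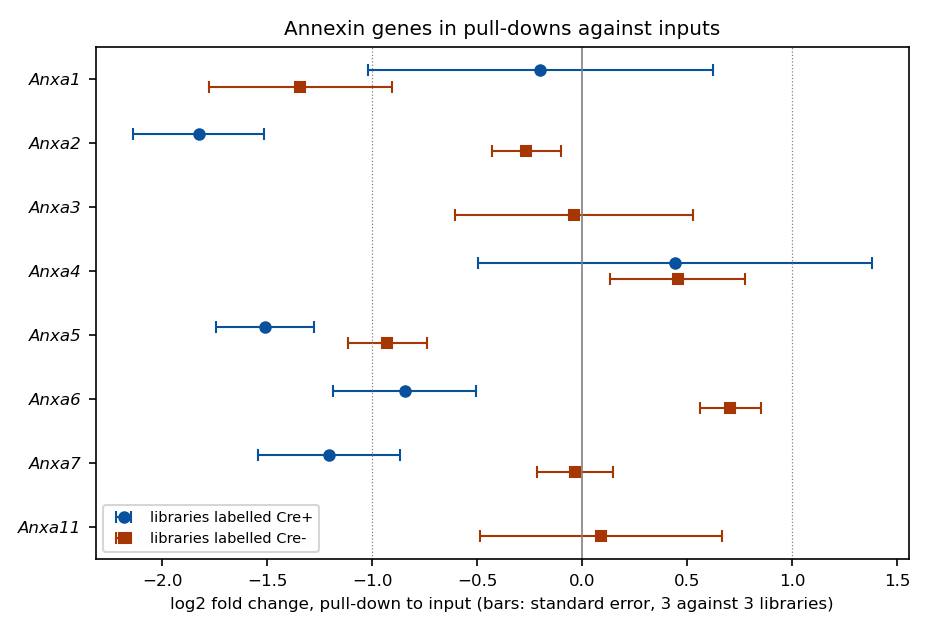
Pull-down relative to input for each annexin gene, as log2 fold change, for libraries labelled Cre+ (circles) and Cre- (squares), with standard errors over 3 against 3 libraries. Dotted lines mark a 2-fold change. Anxa2, Anxa5, Anxa6 and Anxa7 lie left of 0 in Cre+, while in Cre- Anxa6 lies right of 0 and Anxa2 and Anxa7 lie near it.

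The tables were normalized separately, so libraries labelled Cre+ and Cre- were compared on counts of all 12 libraries scaled together. Of the 9112 genes listed in both tables, 8954 entered this fit after a filter on mean FPKM. The inputs and pull-downs are the libraries whose values were seen when the family was chosen, and with inputs close to each other the comparison of pull-downs nearly repeats the difference in enrichment. The values and FDRs of members between pull-downs are therefore a description and not a test, and no independent support either. The comparisons ask whether the cultures with each label started from like annexin levels and whether the pulled-down RNA differed.

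Input levels of the 6 shared members were close under both labels. Anxa2 had 450, 376 and 404 CPM in Cre+ inputs and 300, 377 and 394 in Cre- inputs, which overlapped. Anxa5 had 866, 725 and 823 against 627, 738 and 757, overlapping again. Anxa6 had 242, 260 and 307 against 218, 258 and 249, also with overlap. The log2 fold changes of Cre+ to Cre- inputs ranged from -0.08 ± 0.16 for Anxa7 to 0.60 ± 0.43 for Anxa1. The 95% intervals were -0.12 to 0.52 for Anxa2, -0.11 to 0.48 for Anxa5, -0.16 to 0.48 for Anxa6 and -0.39 to 0.24 for Anxa7, which leave out a 2-fold difference. For Anxa1 the interval was -0.24 to 1.44, so a 2-fold difference was within it, and for Anxa4 it was -0.55 to 0.74. In edgeR, 0 of the 6 members and 0 of all genes (0%) were called, with 0 members and 179 genes at an unadjusted p below 0.05. DESeq2 called 1 gene, not an annexin, and had 246 genes at that level.

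In the pull-downs, Anxa2 and Anxa6 were lower in the libraries labelled Cre+ than in those labelled Cre-. Anxa2 had 73.8, 137 and 139 CPM in Cre+ pull-downs and 297, 255 and 325 in Cre- pull-downs. The groups did not overlap, and the log2 fold change was -1.35 ± 0.31, or 2.55-fold lower (edgeR quasi-likelihood test, FDR = 0.0831 after Benjamini-Hochberg adjustment). Anxa6 had 219, 129 and 104 in Cre+ pull-downs and 415, 376 and 370 in Cre- pull-downs. Again no library overlapped, and the log2 fold change was -1.38 ± 0.32, or 2.60-fold lower (edgeR, FDR = 0.0871). Anxa7 had 47.0, 54.9 and 50.3 in Cre+ pull-downs and 144, 113 and 96.3 in Cre- pull-downs, without overlap. Its log2 fold change of -1.24 ± 0.33 did not pass the threshold (edgeR, FDR = 0.111).

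The remaining members did not meet the limits of a call between pull-downs. Anxa5 had 268, 314 and 274 in Cre+ pull-downs and 480, 303 and 314 in Cre- pull-downs, which touched, and its log2 fold change was -0.39 ± 0.26 (edgeR, FDR = 0.427). Anxa1 had 24.9, 18.6 and 2.55 in Cre+ pull-downs and 4.55, 4.18 and 4.76 in Cre- pull-downs. Cre+ pull-downs 1 and 2 were above and Cre+ pull-down 3 was below all Cre- pull-downs, for a log2 fold change of 1.75 ± 0.83 (edgeR, FDR = 0.282). Anxa4 had 45.4, 2.19 and 12.1 against 24.4, 19.3 and 12.1, and a log2 fold change of 0.09 ± 0.94 (edgeR, FDR = 0.965). Anxa4 thus varied more within the Cre+ pull-downs than between the groups.

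Of 6 members 2 were called lower between pull-downs, where 1.5% of all genes were called lower, and 0 were called higher (1.36% of all genes, and 2.86% in either direction). Nothing is read from this count, since the pull-down values were known at the choice. The median log2 fold change of the members was -0.81 and that of all genes was 0.11. Without Cre+ pull-down 1, Anxa2 (-1.11 ± 0.22), Anxa6 (-1.76 ± 0.22) and Anxa7 (-1.19 ± 0.30) were all called (5.99% of all genes were then called lower), while Anxa1 (1.20 ± 0.80), Anxa4 (-1.41 ± 0.76) and Anxa5 (-0.35 ± 0.25) were not. Leaving out Cre+ pull-down 2 left 1 call, and leaving out Cre+ pull-down 3 or any Cre- pull-down left 0. In the fits without a Cre- pull-down or without Cre+ pull-down 3, between 0 and 5 genes were called higher and between 15 and 34 lower in all. Markers of several cell types were followed in this comparison too. Proprioceptor markers had negative values for 6 of 7 genes, with a median log2 fold change of -0.87 and with Spp1 and Etv1 called lower. Without Cre+ pull-down 1, 5 of 7 were negative and the median was -1.97. Spp1, Etv1, Runx3 and Whrn were then called lower (5.99% of all genes). Endothelial and mural markers had a median of 1.76, and 1.20 without Cre+ pull-down 1, with 0 of 7 called in either fit. The sum of nociceptor and other sensory neuron markers was 943 to 1973 CPM in Cre- pull-downs (14 listed genes) and 2603 to 3314 in Cre+ pull-downs (12 listed genes), against 2917 to 3155 in Cre- inputs and 2875 to 3202 in Cre+ inputs. Over the 12 tested genes the median log2 fold change was 1.07, with 0 called. Without Cre+ pull-down 1 the median was 1.37, with 5 called higher (6.52% of all genes). Of the 16 pan-neuronal markers, 4 were called lower in Cre+ pull-downs than in Cre- pull-downs (Nefm, Snap25, Stmn2 and Uchl1) and 0 higher. The median log2 fold change of the 16 was -0.53, and -0.73 without Cre+ pull-down 1. In that fit 5 were called lower (Snap25, Nefh, Uchl1, Map2 and Isl1) and Gap43 higher, against 5.99% and 6.52% of all genes. The part of these cell types in the annexin values was not tested. In such bulk RNA, fewer cells of a type and less RNA per cell cannot be told apart.

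**Figure D3:**
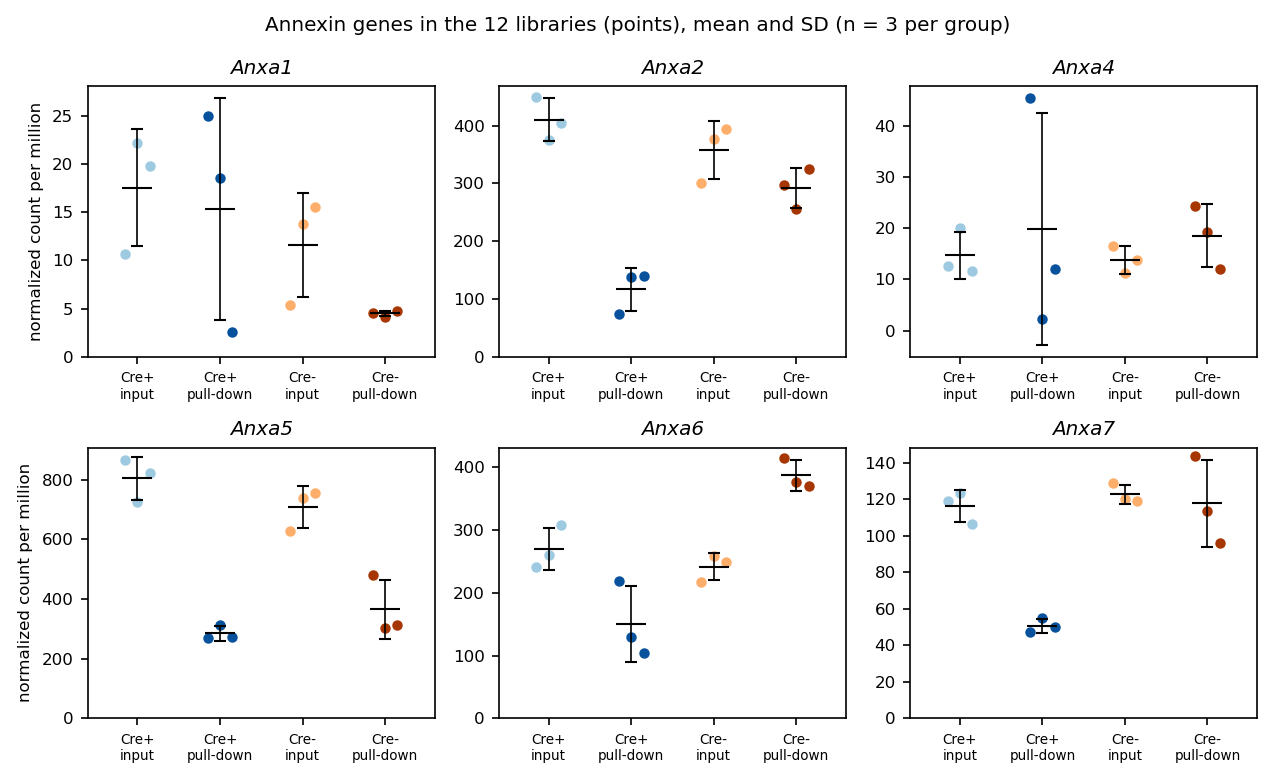
CPM of the 6 annexin genes listed in both tables, in each of the 12 libraries scaled together. Points are libraries, and lines with bars give the mean and SD of 3. For Anxa2 and Anxa7 all Cre+ pull-downs lie below all other libraries, for Anxa6 they lie below all Cre- pull-downs with the highest at 219, and the Anxa4 pull-downs of Cre+ spread from 2.19 to 45.4.

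**Figure D4:**
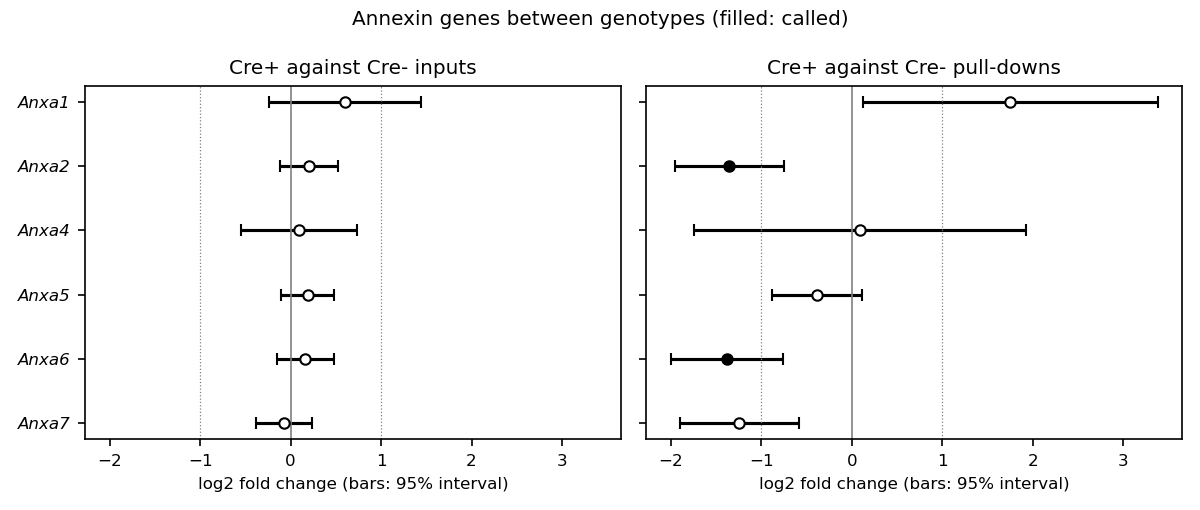
Log2 fold change of Cre+ to Cre- for inputs (left) and pull-downs (right), with normal 95% intervals, for the 6 annexin genes listed in both tables. The intervals are narrower than the test implies. For Anxa1 between pull-downs the bar leaves out 0, at an unadjusted p of 0.0645 (edgeR quasi-likelihood test). Filled markers passed the FDR of 0.1 and the 2-fold limit. All input values lie between -0.08 and 0.60, and Anxa2 and Anxa6 are called among the pull-downs.

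The difference in enrichment was fitted as the interaction of the Cre label and RNA fraction in all 12 libraries. It is built from both contrasts that were known when the family was chosen, so its values are a description and not a test. Pull-down to input was lower in Cre+ than in Cre- for Anxa2, with a log2 difference of -1.52 ± 0.34. For Anxa6 the difference was -1.52 ± 0.35, and the enrichment had opposite signs under the 2 labels. For Anxa7 it was -1.14 ± 0.32. Anxa5 was below its inputs in pull-downs of both labels, and its difference was -0.55 ± 0.29 (95% interval -1.11 to 0.01). For Anxa1 it was 1.17 ± 0.96 and for Anxa4 0.01 ± 1.05.

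By the same limits 3 of 6 members (Anxa2, Anxa6 and Anxa7) were called lower for the difference, where 2.03% of all 8954 genes were called lower, 2.33% higher and 4.37% in either direction. Nothing is read from this count. The median over the members was -0.84 and over all genes 0.13. Without Cre+ pull-down 1 the same 3 were called (6.7% of all genes were then called lower), with -1.28 ± 0.26 for Anxa2, -1.89 ± 0.26 for Anxa6 and -1.09 ± 0.30 for Anxa7. Anxa1 (0.63 ± 0.90), Anxa4 (-1.47 ± 0.79) and Anxa5 (-0.50 ± 0.29) then remained uncalled. The count fell to 1 without Cre+ input 1, Cre+ input 2 or Cre- pull-down 2, and to 0 without Cre+ input 3, Cre- pull-down 3 or any Cre- input. In these fits 13 to 53 genes were called higher and 30 to 85 lower in all, against 209 and 182 in the main fit.

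The share of each member within the family does not depend on the scaling of libraries. The 6 shared members took 0.173% to 0.189% of counts in Cre+ inputs and 0.0481% to 0.0573% in Cre+ pull-downs, over genes listed in both tables. In Cre- they took 0.146% to 0.173% in inputs and 0.10% to 0.138% in pull-downs, so by share of raw counts pull-downs were below inputs under both labels and lowest in Cre+. On the TMM scale the sums of Cre- overlapped, with 1295 to 1548 CPM in inputs and 1071 to 1364 in pull-downs, while Cre+ had 1526 to 1700 and 582 to 678. Per kilobase, Anxa5 made up 50.8% ± 1.36 (SD, n = 3) of the family in Cre+ inputs, 50.5% ± 0.219 in Cre- inputs and 48.0% ± 3.10 in Cre+ pull-downs. In Cre- pull-downs it made up 33.6% ± 4.57, and no library there reached the other groups. Anxa6 went the other way, with 12.0% ± 0.409 in Cre- inputs and 25.2% ± 1.96 in Cre- pull-downs. In Cre+ it made up 11.9% ± 1.62 in inputs and 17.6% ± 6.70 in pull-downs, of which Cre+ pull-down 1 held 25.3% and the others 13.1% and 14.4%. Anxa2 made up 30.9% ± 1.21 in Cre+ inputs, 30.4% ± 1.21 in Cre- inputs and 32.7% ± 4.50 in Cre- pull-downs, and 23.7% ± 8.0 in Cre+ pull-downs. The family composition of the inputs was thus close under both labels. Between pull-downs the libraries of Anxa5 did not overlap, while those of Anxa2 and Anxa6 did. The mean shares in Cre+ pull-downs 2 and 3 alone were 49.8% for Anxa5, 28.2% for Anxa2 and 13.7% for Anxa6.

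Partner genes of annexins were followed from a list of 12, of which 8 were tested in Cre+ and 10 in Cre-. In Cre+ 2 were called lower and 0 higher, where 2.19% and 4.72% of all genes were. In Cre- 4 were called lower and 1 higher, against 5.83% and 6.01% of all genes. Without Cre+ pull-down 1, 4 were called lower in Cre+ (S100b, S100a10, S100a6 and Sri), where 6.04% of all genes were. S100a10, which forms a tetramer with Anxa2, had 338, 156 and 176 CPM in Cre+ inputs and 53.1, 62.7 and 61.8 in Cre+ pull-downs. All pull-downs were below all inputs, and the log2 fold change was -1.91 ± 0.37 (called). In Cre- it had 173, 192 and 203 in inputs and 97.2, 96.3 and 159 in pull-downs, also without overlap. The log2 fold change of -0.69 ± 0.21 did not reach 2-fold. The difference of S100a10 between the labels was -1.19 ± 0.43 and did not pass (edgeR, FDR = 0.161).

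S100a11 is known as a partner of Anxa1, and no test compared it with S100a10. It had 126, 146 and 141 in Cre+ inputs and 36.5, 69.9 and 100 in Cre+ pull-downs, which spread widely below the inputs, for a log2 fold change of -1.0 ± 0.41 (not called). In Cre- it had 162, 113 and 177 in inputs and 37.8, 22.9 and 30.8 in pull-downs, for a log2 fold change of -2.30 ± 0.24 (called). The difference of S100a11 between the labels was 1.34 ± 0.49 and did not pass (edgeR, FDR = 0.164). Without Cre+ pull-down 1 it was 1.65 ± 0.37 and was called (edgeR, FDR = 0.0187), where 7.09% of all genes were called higher. S100a6 was called lower under both labels, with -2.22 ± 0.52 in Cre+ and -2.31 ± 0.29 in Cre-. The calcium-binding protein gene Sri, a partner of Anxa7, was called lower in Cre- (-1.54 ± 0.25) and had -1.57 ± 0.48 in Cre+, where it was not called (-1.20 ± 0.35 and called without Cre+ pull-down 1). S100a4 was called lower in Cre- (-2.35 ± 0.63), from at most 6.54 CPM. Dysf, the muscle membrane repair protein dysferlin that binds Anxa1 and Anxa2, was called higher in Cre- (1.43 ± 0.24).

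**Figure D5:**
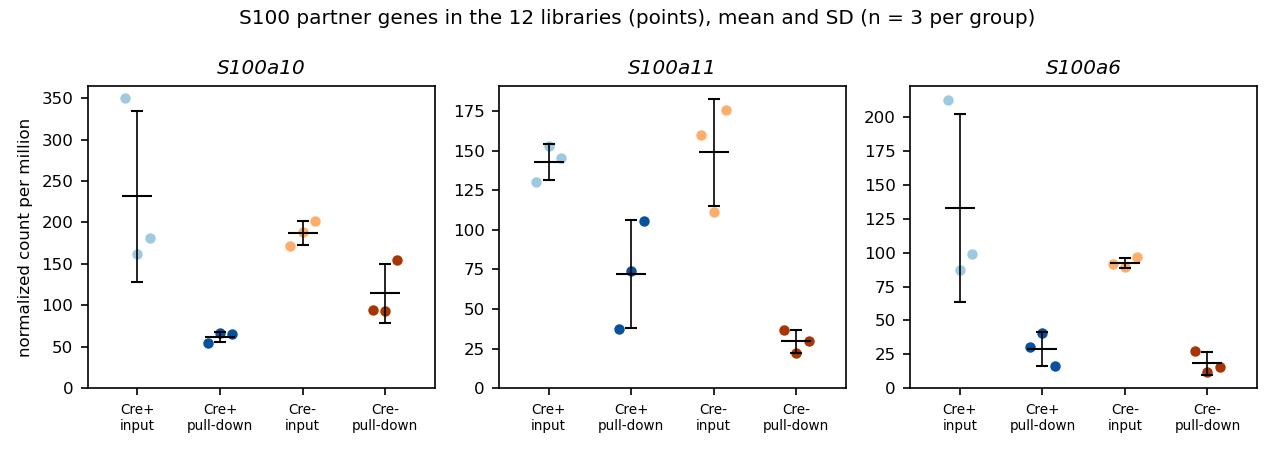
CPM of S100a10, S100a11 and S100a6 in each of the 12 libraries scaled together. Points are libraries, and lines with bars give the mean and SD of 3. Pull-downs lie below the inputs of their label for all 3 genes, and for S100a11 the Cre+ pull-downs (37.5 to 105) lie above the Cre- pull-downs (22.2 to 36.9).

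Between pull-downs, 1 of the 8 partners was called lower and 0 higher, against 1.5% and 1.36% of all genes. S100b, a calcium sensor of glia and of large sensory neurons, was lower in Cre+ than in Cre- pull-downs by a log2 fold change of -1.60 ± 0.27 (edgeR, FDR = 0.0374). It had 215, 157 and 129 CPM in Cre+ pull-downs and 434, 514 and 554 in Cre- pull-downs, on the scale of all 12 libraries, which did not overlap. Its enrichment also differed, by -1.65 ± 0.35 (edgeR, FDR = 0.0364). In the fit without Cre+ pull-down 1, S100b (-1.83 ± 0.22) stayed called between pull-downs and S100a11 (1.56 ± 0.36, higher in Cre+) was called too, where 5.99% of all genes were called lower and 6.52% higher. The very large scaffold gene Ahnak, which binds the Anxa2 and S100a10 complex, had 10020, 1131 and 1213 in Cre+ pull-downs and 1194, 317 and 257 in Cre- pull-downs. Its value in Cre+ pull-down 1 was far above all other libraries, and the difference between pull-downs was 2.80 ± 0.95 (edgeR, FDR = 0.166). Without that library it was 0.96 ± 0.57 (edgeR, FDR = 0.309). The median log2 fold change of the partners was -1.0 in Cre+ and -1.11 in Cre-, against 0.08 and -0.04 over all genes.

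S100 genes were followed as a list of 16, which also holds S100pbp, an S100 binding protein and no S100 gene. Of 6 tested genes in Cre+, 2 were called lower (S100a10 and S100a6, against 2.19% of all genes) and 5 had negative values, with S100pbp at 0.30 ± 0.60. Of 10 tested in Cre-, 5 were called lower (S100a11, S100a6, S100a13, S100a16 and S100a4, against 5.83% of all genes) and 8 had negative values. The median log2 fold changes were -1.35 in Cre+ and -1.65 in Cre-, against 0.08 and -0.04 over all genes. S100b stood apart with 0.69 ± 0.16 in Cre-.

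Other lists of annexin biology held few calls. Of 20 tested genes of plasma membrane repair, a process in which annexins cap wounds together with dysferlin, calpains and the ESCRT machinery, 1 was called lower in Cre+ (Capns1, the small calpain subunit, -1.09 ± 0.23), against 2.19% of all genes. In Cre- 2 were called higher (Ehd4, 1.15 ± 0.20, and Dysf), against 6.01% of all genes, and 0 passed for the difference or between pull-downs. Once Cre+ pull-down 1 was left out, Ehd4 was called lower and Syt7 higher in both, and Pdcd6 was called lower for the difference. In those fits 7.09% of all genes were called higher and 6.7% lower for the difference, and 6.52% and 5.99% between pull-downs. Of 10 tested genes that set phosphatidylserine exposure, the lipid that annexins bind, 2 were called higher in Cre- pull-downs, the flippase genes Atp11a (1.57 ± 0.15) and Atp8a2 (2.17 ± 0.18), against 6.01% of all genes. In Cre+ 0 were called higher, and Atp8a2 and Xkr6 were called higher without Cre+ pull-down 1, against 8.98% of all genes. For the difference 1 was called lower (Atp8a2), where 2.03% of all genes were, and without that library 3 were called higher (Atp8a1, Atp11b and Xkr6) and 1 lower, against 7.09% and 6.7% of all genes. Atp8a2 was also lower in Cre+ than in Cre- pull-downs (-1.30 ± 0.26, edgeR FDR = 0.0587), where 1.5% of all genes were called lower. Without Cre+ pull-down 1, Atp8a1 and Atp11b were called higher there and Atp8a2 lower, against 6.52% and 5.99% of all genes. Of 17 other genes for proteins that bind phospholipid with calcium, 2 were called lower in Cre-, the copine genes Cpne4 (-1.09 ± 0.24) and Cpne8 (-1.19 ± 0.32), and 1 higher, the synaptotagmin gene Syt2 (1.34 ± 0.19), where 5.83% of all genes were called lower and 6.01% higher. In Cre+ 0 of 16 were called. Cpne4 was higher in Cre+ than in Cre- pull-downs (1.72 ± 0.36, edgeR FDR = 0.0652), as 1 of 16 genes tested (1.36% of all genes were called higher). Plasminogen activation, which Anxa2 and S100a10 promote at the cell surface, had 0 calls among 4 tested genes in Cre+ (6.91% of all genes called) and 5 in Cre- (11.8%). Serpine2, a serine protease inhibitor gene, was called lower in Cre+ once Cre+ pull-down 1 was left out (-2.38 ± 0.80), where 6.04% of all genes were. Plaur, the urokinase receptor gene, had -1.54 ± 0.57 in Cre+ and -0.31 ± 0.21 in Cre-.

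The genes whose pattern over the 12 libraries was most like the mean of the 6 shared members were Actr3, Dctn6, Hsp90ab1, Sqstm1 and Psmd14, out of 8948 other genes. Likeness was the root mean square difference of centred log2 values, which was 0.198 for Actr3, 0.203 for Dctn6, 0.206 for Hsp90ab1, 0.214 for Sqstm1 and 0.216 for Psmd14. They code for a subunit of the Arp2/3 actin nucleator, a dynactin subunit, a cytosolic chaperone, an autophagy receptor and a proteasome deubiquitinase. The members themselves were farther from their own mean, from 0.328 for Anxa7 and 0.392 for Anxa5 to 0.835 for Anxa4 and 0.932 for Anxa1. Psmd14 had a log2 fold change of -1.17 ± 0.40 in Cre+ and -0.07 ± 0.17 in Cre-, close to the values of Anxa7. Actr3 had -0.91 ± 0.32 in Cre+ and -0.27 ± 0.15 in Cre-. None of these 5 genes was called in any comparison. They ranked without Cre+ pull-down 1 between 9 (Actr3) and 32 (Psmd14), so the order rests on that library. The likeness describes these libraries and was not tested.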

How the data were processed

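RNA was sequenced from HA pull-downs and inputs of cultured DRG neurons labelled Runx3-Cre+ or Cre-, with 3 samples in each of 4 groups. Per the labels, libraries were made with a Nugen Ovation ultra-low input kit. The authors aligned reads to mm10 with STAR. For each genotype label they deposited the count of uniquely mapped fragments per gene and library (HTSeq, refFlat). These counts are whole numbers and not normalized. The submitters' processing notes also name CASAVA 1.8.2 and edgeR. The deposited tables also give the authors' mean FPKM per gene, used here as a filter. In the Cre+ table the lowest count of any library is 5, while in the Cre- table every gene reaches 5 in 1 library or more. A further 18 columns with values per sample, and the authors' own fold changes and p-values, were not used. The Cre+ columns were mapped to their group only, so their numbers just tell libraries apart.

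Counts of genes whose mean FPKM exceeded 1 entered edgeR 4.0.16 (TMM, robust quasi-likelihood, R 4.3.3), with Benjamini-Hochberg adjustment over all genes tested, and a call needed an FDR under 0.1 with a 2-fold difference or more. Pull-down was compared with input within each Cre label on 6 libraries. Pull-downs, inputs and the interaction used genes of both tables. Standard errors are the size of the log2 fold change divided by the square root of F, and 95% intervals are normal intervals from them. With so few libraries these intervals are narrower than the test implies. Counts were scaled to CPM with TMM factors, on the scale of each table or of all 12 libraries. Levels per kilobase used the transcript length of GENCODE M21.

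Library totals of 8886308 to 18633365 limit the precision of scarce genes, and without molecular identifiers PCR copies count as separate reads. Alternatives were DESeq2 1.42.0, upper-quartile and library-size scaling, a filter of 10 counts in 3 libraries, no filter, a fit of all 12 libraries together, a block for the replicate number in Cre-, each library left out and, chosen after the values were seen, dispersions without the robust option. The scripts were tested on simulated data. Gene lists, family shares and likeness were also computed without Cre+ pull-down 1, which was chosen after the values were seen. The rule for named genes takes all annexins, genes of the lists that were called and the 5 genes most like the family, and called genes of marker lists are given mostly as counts. The members and lists were chosen with earlier results of these data known. Ahnak, Plaur and S100b values were singled out after they were seen. Figures used matplotlib 3.10.9.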

Additional observations from a re-analysis of the deposited data

Results flagged for a closer look

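The enrichment of 3 annexin genes was flagged because its difference between the Cre labels was called in the fit of all 12 libraries. In that fit 2.03% of all genes were called lower. Pull-down to input, as a log2 value, was lower in Cre+ than in Cre- by -1.52 for Anxa2, by -1.52 for Anxa6 and by -1.14 for Anxa7. Over 18 alternatives the difference ranged from -1.74 to -1.28 for Anxa2, from -1.89 to -1.31 for Anxa6 and from -1.38 to -0.99 for Anxa7. The call held in only 12 of the 18 for Anxa2, in 11 for Anxa6 and in 9 for Anxa7. The fit is built from contrasts known when the family was chosen, so these values are a description and no independent test. With 3 samples a group, no formal test for an outlying sample was run, and the fits without each library stand with the results on processing.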

How the results depend on the processing

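No member that was called changed sign under any alternative. Among the settings that keep all libraries, the count of annexins called lower in Cre- was 2 with library-size scaling, which adds Anxa5, and 0 with all 12 libraries in one fit, and 64 of 66 counts of called members stayed within 1.5 times. Library-size scaling moved the median log2 fold change of all genes from 0.08 to -0.36 in Cre+ and from -0.04 to -0.27 in Cre-. It turned the calls from 422 higher and 196 lower to 192 higher and 699 lower in Cre+, and from 693 and 672 to 429 and 1238 in Cre-, and Anxa4 in Cre+ and Anxa11 in Cre- became negative. Upper-quartile scaling gave 249 higher and 266 lower in Cre+. DESeq2 called 1103 and 568 genes in Cre+ and 774 and 445 between pull-downs, where the main test called 122 and 134. Anxa7 passed between pull-downs with DESeq2 (FDR = 0.0113) and library-size scaling (FDR = 0.0854), over a range of 0.0113 to 0.433. For these changes the cause was not tested.

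Leaving out 1 library at a time, the count of annexins called lower ranged from 0 to 4 in Cre+, from 0 to 2 in Cre-, from 0 to 3 for the difference and from 0 to 3 between pull-downs. Over all genes, these fits called 0 to 540 lower in Cre+ and 525 to 1060 in Cre-. For the difference they called 30 to 694 lower, and between pull-downs 15 to 536. Annexin counts of 0 came without Cre+ input 1 or 3 in Cre+, without Cre- input 2 or 3 or Cre- pull-down 2 or 3 in Cre-, without Cre+ input 3, any Cre- input or Cre- pull-down 3 for the difference, and without Cre+ pull-down 3 or any Cre- pull-down between pull-downs. These fits use fewer samples. With 3 libraries a group and these library totals, Anxa1, Anxa3, Anxa4 and Anxa11 were too scarce and variable for small differences.

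With a replicate block in Cre-, 1 annexin was again called lower (Anxa1, log2 fold change -1.22), and 704 genes were called higher and 792 lower in all. The pairing rests on the number alone. Deviations from the group means correlated by 0.0716, 0.0308 and 0.133 for same-numbered pull-downs and inputs, each the highest for its pull-down. The block was not run in Cre+, whose columns were matched to their group and not to single samples, so that their numbers pair nothing.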
